A study of Mus musculus with 12 samples.

Results

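Markers of cancer-associated fibroblasts were followed across the tumors of 4 treatment groups in bulk RNA-seq data. The 10 genes were taken by symbol from a table of 55401 genes: Pdgfra, Pdgfrb, Fap, Thy1, Pdpn, Acta2, Tagln, Dcn, Lum and Postn. The tumors came from 4T1, a mammary carcinoma line of the mouse, placed orthotopically in Balb/c hosts. Each group held 3 tumors with 1 library per tumor, and libraries are named here by group and by the replicate number in the sample title. Control mice received an isotype protein (IgG1-Fc, called control IgG here), and the other groups received recombinant IL10-Fc protein (IL-10-Fc), an antibody to the receptor CSF1R (aCSF1R) or BF10. Per the study's methods, BF10 is a mouse IgG2a antibody to CSF1R with human interleukin-10 joined to the C terminus of its heavy chain. All groups shared the tumor line, the host strain and dosing from a tumor volume of 100 mm3. The labels give 6 doses and the series description gives 4, so the number of doses is uncertain. Age and sex of the mice are not in the labels, and they name no transgene, Cre or gene deletion for any group. The hosts kept their own immune and stromal cells, and every library mixes RNA of tumor and host cells.

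Fibroblasts in a tumor make and remodel the extracellular matrix, and some of them take on a contractile, myofibroblast-like state. They are commonly recognised by receptors for platelet-derived growth factors, by surface proteins such as fibroblast activation protein, by smooth muscle cytoskeletal proteins, and by secreted matrix proteins. No single one of these genes is restricted to fibroblasts. Pericytes and smooth muscle cells also express Pdgfrb, Acta2 and Tagln, mouse T cells express Thy1, and lymphatic endothelium expresses Pdpn. In bulk tumor RNA, fewer cells of a type and less RNA per cell cannot be told apart.

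The deposited FPKM values, fragments scaled by transcript length and library size, were divided by the total of their library and rescaled to one common total. This gives TPM, a scale that corrects for transcript length. All 10 markers were above 0 in all 12 libraries, and all 10 were among the 15504 genes that reached 1 TPM in at least 3 libraries. The read depth behind each value is unknown, because the table holds no counts. The libraries fell into a lower-sum set of 7, with FPKM totals of 609695 to 648413, and a higher-sum set of 5, with totals of 782919 to 921581. The higher-sum libraries were control replicates 4 and 7, IL-10-Fc replicate 7, aCSF1R replicate 8 and BF10 replicate 6. Mitochondrial genes held 5.90% to 9.26% of the TPM in the higher-sum set against 3.14% to 3.96% in the lower-sum set, and ribosomal protein genes 21.0% to 25.3% against 13.0% to 15.6%. The sets were defined from these totals and are not groups of the study. Because control IgG had 2 higher-sum libraries and every other group had 1, the comparisons with control are given below also from a fit that adds the library set as a term. The term leaves the differences of BF10 from IL-10-Fc and from aCSF1R as they are, since each of these groups had 1 higher-sum library. It has 2 levels and cannot adjust for differences within a set. IL-10-Fc replicate 7 had the lowest total of the higher-sum set, 782919, against 891627 and 901921 in control replicates 4 and 7.

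Levels of the markers ranged widely. By the median over the 12 libraries Postn, which encodes the matricellular protein periostin, was at 707 TPM, above 98.7% of the tested genes. Dcn followed at 223.5 TPM, Thy1 at 194.9 TPM, Tagln at 150.2 TPM, Lum at 104 TPM and Acta2 at 103 TPM. Pdpn, Pdgfrb and Pdgfra lay at 22.4, 22.3 and 21.7 TPM, and Fap was lowest at 9.80 TPM. The ranges of neighbouring markers in this order overlapped across libraries, and Pdpn, Pdgfrb and Pdgfra differed in their medians by less than 1 TPM.

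The PDGF receptors came first in the comparison. Pdgfra, the receptor tyrosine kinase that marks many tissue fibroblasts, was at 8.03, 25.7 and 7.36 TPM in control replicates 4, 5 and 7. Its level was 20.9, 25.0 and 13.5 TPM for IL-10-Fc replicates 2, 4 and 7, at 35.0, 36.3 and 7.65 TPM in aCSF1R replicates 4, 6 and 8, and at 43.4, 6.19 and 22.5 TPM in BF10 replicates 3, 6 and 7. The groups overlapped, and the 5 lowest libraries were the 5 of the higher-sum set. Pdgfrb, the related receptor found on fibroblasts and pericytes, was at 6.74, 26.6 and 6.72 TPM in control, 30.2, 38.6 and 16.1 TPM in IL-10-Fc, 43.2, 25.1 and 3.08 TPM in aCSF1R and 49.7, 9.67 and 19.6 TPM in BF10, in the same order of replicates. Here too the 5 lowest values were those of the higher-sum libraries. The ratio of Pdgfra to Pdgfrb lay between 0.640 and 2.48, with the extremes in BF10 replicate 6 and aCSF1R replicate 8.

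Among the surface proteins, Fap, a membrane-bound serine protease, was at 15.6, 6.27 and 8.97 TPM in control, 5.89, 10.6 and 17.9 TPM in IL-10-Fc, 11.9, 6.76 and 4.49 TPM in aCSF1R and 11.3, 12.8 and 4.27 TPM in BF10. Every group spanned most of the same range. Thy1, a small glycoprotein anchored to the outer membrane, was at 105, 193 and 70.9 TPM in control and at 252, 309.8 and 216 TPM in IL-10-Fc, so all 3 IL-10-Fc libraries were above all 3 controls. It was at 321, 197 and 63.0 TPM in aCSF1R and at 411, 128 and 178 TPM in BF10, and these groups overlapped with control. Pdpn, the mucin-like glycoprotein podoplanin, was at 18.5, 21.1 and 9.59 TPM in control and at 25.5, 57.3 and 35.6 TPM in IL-10-Fc, again without overlap. In aCSF1R it was at 43.3, 22.1 and 12.2 TPM and in BF10 at 73.3, 16.9 and 22.6 TPM, and each of these groups had a library below the highest control.

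The contractile pair also varied widely within groups. Acta2, the smooth muscle actin used to recognise myofibroblasts, was at 83.0, 114 and 18.2 TPM in control, 151, 287 and 163 TPM in IL-10-Fc, 136, 84.1 and 27.3 TPM in aCSF1R and 442, 64.6 and 91.1 TPM in BF10. IL-10-Fc was the only treated group that did not overlap with control. Tagln, the actin-binding protein transgelin, was at 186, 146 and 28.9 TPM in control, 155, 366 and 205 TPM in IL-10-Fc, 190, 97.7 and 39.0 TPM in aCSF1R and 451, 92.3 and 100 TPM in BF10. Control replicate 4 was above IL-10-Fc replicate 2 for Tagln, so these groups overlapped. The actin genes are close paralogs, and how the authors' counting divided reads between Acta2 and its relatives was not tested. Actg2, the nearest smooth muscle relative, had a median of 9.60 TPM and Acta1, the skeletal muscle actin, lay between 0 and 19.1 TPM.

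The secreted matrix proteins had smaller differences between group means. Dcn, the small leucine-rich proteoglycan decorin, was at 291, 121 and 206 TPM in control, 128, 340.2 and 351 TPM in IL-10-Fc, 248, 157 and 241 TPM in aCSF1R and 398, 188 and 106 TPM in BF10. Lum, the related proteoglycan lumican, was at 204, 68.7 and 101 TPM in control, 47.8, 127 and 156 TPM in IL-10-Fc, 67.7, 53.6 and 127 TPM in aCSF1R and 159.5, 108 and 34.8 TPM in BF10. For both, each treated group overlapped with control. Postn was at 1252, 561 and 448 TPM in control, 543, 849 and 1049 TPM in IL-10-Fc, 776, 371 and 638 TPM in aCSF1R and 1006, 864 and 413 TPM in BF10. For Lum and Postn the highest of the 12 libraries was a control, replicate 4.

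**Figure D1:**
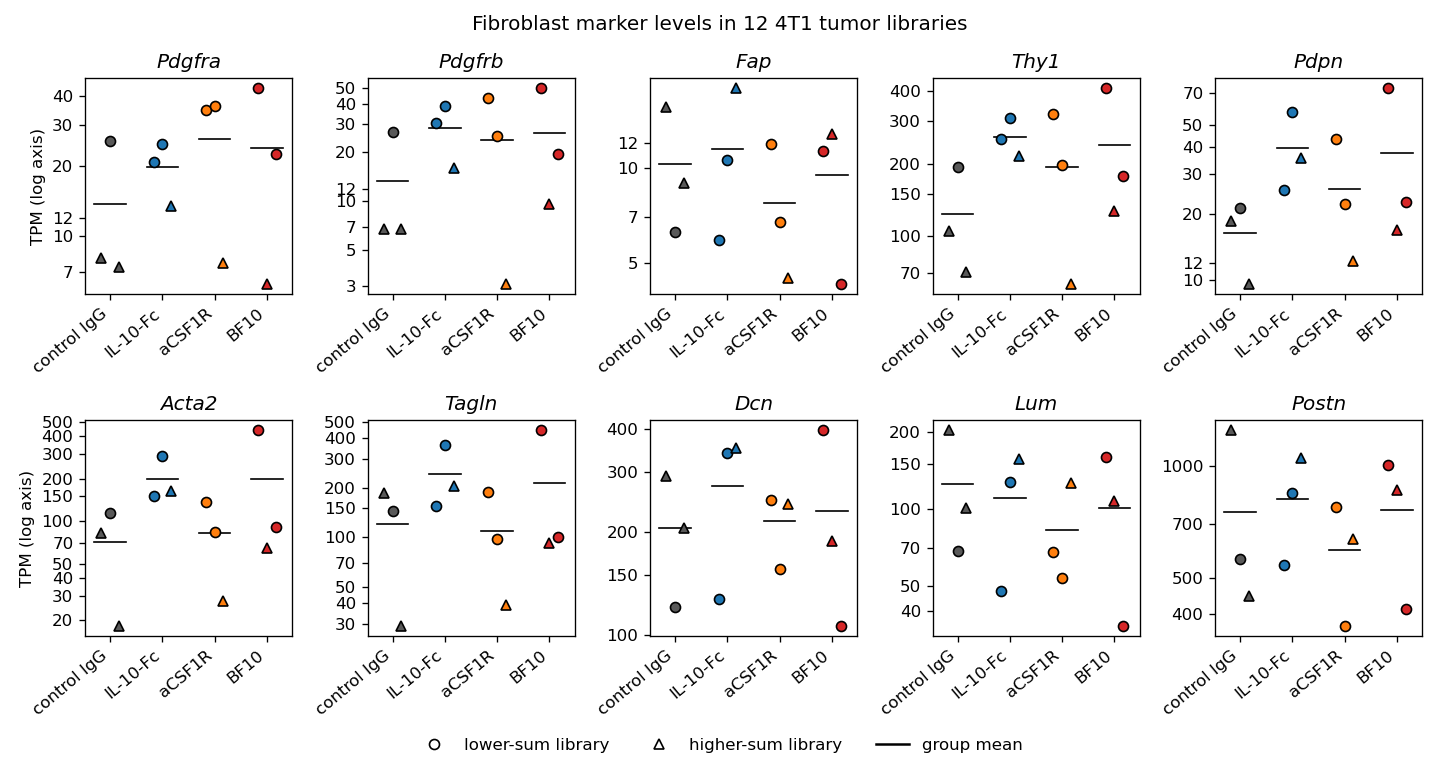
Level of each marker in TPM (log axis, 1 panel per gene, scales differ) in the 12 libraries by treatment group, with circles for lower-sum libraries, triangles for higher-sum libraries and a line at the group mean. For Pdgfra and Pdgfrb the triangles are the 5 lowest points, and for Acta2, Thy1 and Pdpn all IL-10-Fc points lie above all control points.

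Tumors of the same group differed widely in these markers. Within BF10 the highest library exceeded the lowest by 2.43-fold for Postn to 7.01-fold for Pdgfra, with a median over the markers of 4.46-fold. The corresponding ranges were 2.20-fold (Pdpn) to 6.44-fold (Tagln) in control, 1.44-fold (Thy1) to 3.27-fold (Lum) in IL-10-Fc and 1.59-fold (Dcn) to 14.0-fold (Pdgfrb) in aCSF1R. BF10 replicate 3 was the highest of all 12 libraries for 7 markers (Pdgfra, Pdgfrb, Acta2, Tagln, Dcn, Thy1 and Pdpn). BF10 replicate 7, also a lower-sum library, was the lowest of all for Fap, Dcn and Lum. Between these BF10 tumors the markers differed by 1.93-fold for Pdgfra to 4.86-fold for Acta2, with replicate 3 higher for all 10. Among the 5 higher-sum libraries, IL-10-Fc replicate 7 was highest for 8 markers and control replicate 7 was lowest for 5.

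BF10 was compared first with control IgG, to ask whether the fusion protein altered fibroblast genes. None of the 10 markers passed the test (limma on log2(TPM + 1), Benjamini-Hochberg adjusted p below 0.05 and a change of at least 1.5-fold), and 0% of all tested genes did. At an unadjusted p below 0.05 the count was 0 markers and 234 genes. None of the markers was without overlap between the groups, against 3.53% of tested genes. The largest difference was that of Acta2, from 71.8 ± 48.9 TPM in control to 199 ± 211 TPM in BF10 (SD, n = 3 each), with a log2 change of 1.28 ± 0.85 (SE), a 95% interval of -0.60 to 3.17 and an adjusted p of 0.788 by limma. Pdpn (0.93), Pdgfrb (0.92), Thy1 (0.89), Tagln (0.79) and Pdgfra (0.63) had positive log2 differences, Postn (0.063) and Dcn (0.046) lay near 0, and Fap (-0.14) and Lum (-0.41) were negative. The median log2 difference over the markers was 0.71, beside 0.32 over all tested genes, 77.5% of which were higher in BF10 on this scale. With the library set as a term, Acta2 was at 0.83, Pdpn at 0.66, Thy1 at 0.51, Tagln at 0.45, Pdgfrb at 0.29 and Pdgfra at 0.082. Dcn and Postn were then both at 0.21, Fap at 0.0096 and Lum at -0.11, and the medians were 0.25 for the markers and 0.068 for all genes. Without BF10 replicate 3, the Dcn and Postn differences were -0.45 and -0.19, and without control replicate 7 that of Tagln was -0.031.

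IL-10-Fc, the cytokine part without the antibody, gave the highest group mean for 8 of 10 markers, the exceptions being Pdgfra and Lum. None of the 10 passed the limma test, where 0.00645% of tested genes did (1 gene, which was lower), and none had an unadjusted p below 0.05, against 224 genes. Acta2, Thy1 and Pdpn did not overlap between IL-10-Fc and control, 3 of 10 markers beside 6.53% of tested genes. Acta2 had the largest value, 201 ± 75.2 TPM against 71.8 ± 48.9 TPM, a log2 difference of 1.76 ± 0.85 (SE), a 95% interval of -0.13 to 3.64 and an adjusted p of 0.738 by limma. Thy1 was at 259 ± 47.5 TPM against 123 ± 63.1 TPM, with a log2 difference of 1.17 ± 0.60 (SE) and an interval of -0.16 to 2.51. Pdpn was at 39.5 ± 16.2 TPM against 16.4 ± 6.04 TPM, with a log2 difference of 1.21 ± 0.60 (SE) and an interval of -0.11 to 2.53. Tagln (1.28), Pdgfrb (1.23) and Pdgfra (0.68) also had positive differences, and Dcn (0.36), Postn (0.21), Fap (0.11) and Lum (-0.19) had smaller ones. The median over the markers was 0.93, beside 0.35 over all genes, of which 79.7% were higher in IL-10-Fc. With the set term Acta2 was at 1.31 ± 0.66 (SE), Pdpn at 0.94 ± 0.49, Tagln at 0.93, Thy1 at 0.79 ± 0.38, Pdgfrb at 0.60, Dcn at 0.52, Postn at 0.35, Fap at 0.26, Pdgfra at 0.13 and Lum at 0.11. None passed, and the medians were then 0.56 for the markers and 0.10 for all genes. Between the lower-sum libraries alone (2 IL-10-Fc, 1 control) the medians were 0.44 for the markers and -0.068 for all genes. Between the higher-sum libraries (1 IL-10-Fc, 2 control) they were 0.94 and 0.33. The part of differences within the higher-sum set was not tested.

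The antibody alone (aCSF1R), which blocks the receptor that macrophages need for survival, was compared with control next. None of the 10 markers passed, where 0.568% of tested genes did, all of them lower in aCSF1R. No marker was free of overlap, beside 5.28% of tested genes. The log2 differences ran from -0.54 for Lum and -0.38 for Fap to 0.84 for Pdgfra, with 6 positive and 4 negative and a median of 0.20 beside 0.24 for all genes. With the set term Pdgfra was at 0.29, Acta2 at -0.18, Pdgfrb at -0.12, Lum at -0.23 and Fap at -0.23, and the medians were -0.12 for the markers and 0.0068 for all genes. The intervals were wide, from -0.83 to 2.51 for Pdgfra and from -1.61 to 2.16 for Acta2 (log2 difference 0.28). Without aCSF1R replicate 4 the Acta2 difference was -0.22 and that of Pdgfrb was -0.19, and without control replicate 7 that of Acta2 was -0.51. In the same comparison the macrophage genes C1qa (-3.98), Mrc1 (-2.96) and Adgre1 (-2.05) fell, with adjusted p-values by limma of 0.000685, 0.0011 and 0.0492.

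BF10 was also compared with the proteins that carry only 1 of its parts. Relative to IL-10-Fc, none of the 10 markers passed, where 0% of tested genes did and 42 had an unadjusted p below 0.05, and none was without overlap, beside 2.13% of tested genes. All 10 log2 differences were negative, from -0.046 for Pdgfra to -0.49 for Tagln, with a median of -0.28 beside -0.047 for all genes. Each had an interval that covered 0, for example -2.36 to 1.41 for Acta2 and -1.18 to 0.89 for Postn. Without BF10 replicate 6 the differences of Acta2 (0.065), Pdgfra (0.68), Pdgfrb (0.23), Pdpn (0.12) and Thy1 (0.079) were positive. Without BF10 replicate 7 those of Dcn (0.14), Fap (0.19), Lum (0.41) and Postn (0.25) were positive.

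Against aCSF1R, none of the 10 markers passed, where 0.735% of tested genes did, all of them higher in BF10, and none was without overlap, beside 5.91% of tested genes. Acta2 had the largest log2 difference, 1.01 ± 0.85 (SE) with an interval of -0.88 to 2.89, followed by Tagln at 0.83 and Pdgfrb at 0.41, while Pdgfra was at -0.21 and Dcn at -0.077. The median was 0.36 beside 0.056 for all genes. The 3 macrophage genes named above were higher in BF10 than in aCSF1R, C1qa by 3.66, Adgre1 by 2.60 and Mrc1 by 2.50 on the log2 scale, and were at adjusted p-values below the threshold. These 5 comparisons share groups and are not independent of each other.

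**Figure D2:**
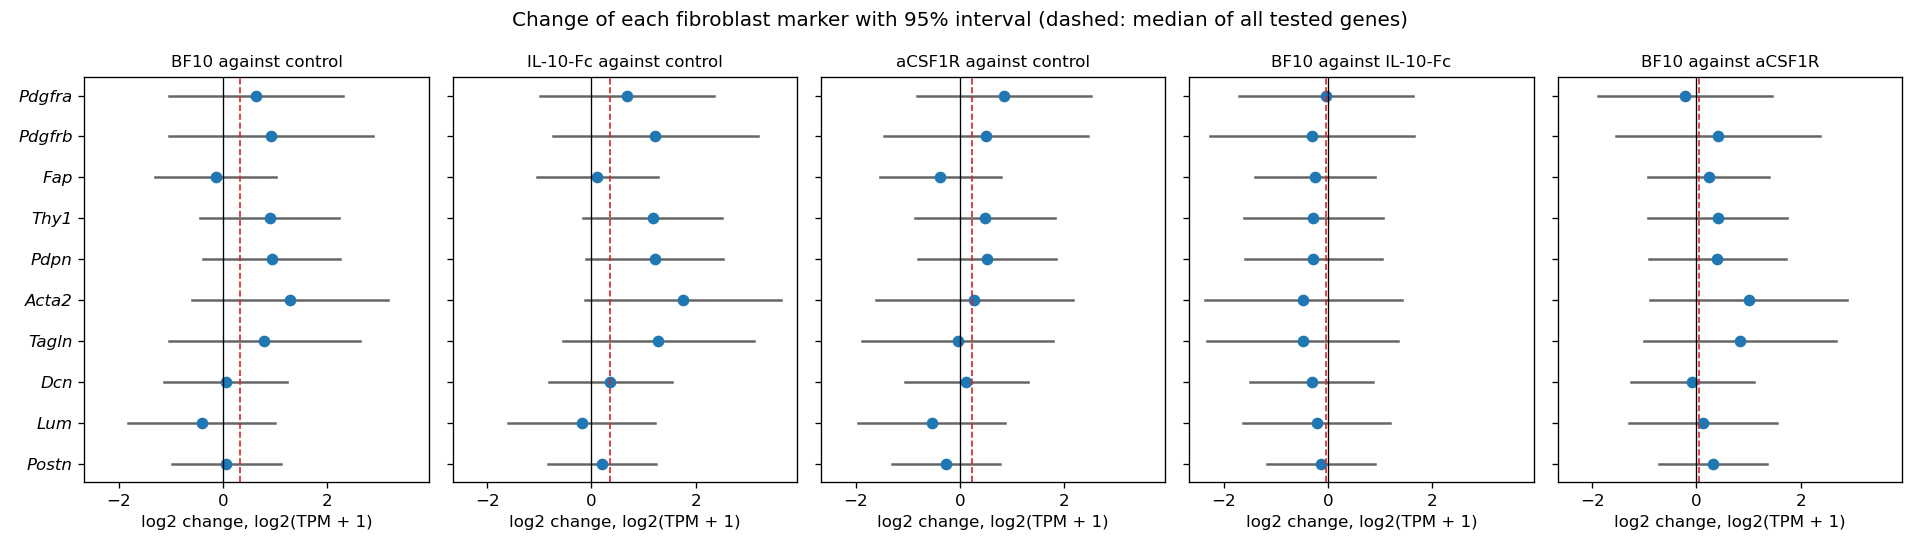
Log2 difference of each marker on the log2(TPM + 1) scale (points) with its 95% interval from limma (lines) in the 5 comparisons, and the median of all tested genes as a dashed line. Every interval crosses 0, and the interval of Acta2 in IL-10-Fc against control, -0.13 to 3.64, reaches furthest to the right.

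Pairs of markers differed in how stable their ratio was. Tagln and Acta2, both part of the contractile apparatus, kept a ratio of 1.02 to 2.25 over all 12 libraries and of 1.02 to 1.39 over the 7 lower-sum libraries, while Acta2 itself ranged from 18.2 to 442 TPM. Dcn and Lum, which lie side by side on chromosome 10 (Dcn at chr10:97479609-97518143, Lum at chr10:97565128-97572703, GRCm38, both on the plus strand), had a ratio of 1.43 to 3.67. The ratio of a matrix marker to a contractile one was far less stable. Dcn to Acta2 ran from 0.845 in IL-10-Fc replicate 2 to 11.3 in control replicate 7, a 13.3-fold range. It was 0.845 to 1.86 in the lower-sum libraries and 2.15 to 11.3 in the higher-sum libraries, without overlap. Postn to Acta2 was likewise 2.27 to 5.69 against 6.43 to 24.6. Within the lower-sum set, the Dcn to Acta2 ratio was 1.06 in the control library, 0.845 and 1.18 in IL-10-Fc, 1.82 and 1.86 in aCSF1R, and 0.899 and 1.17 in BF10.

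**Figure D3:**
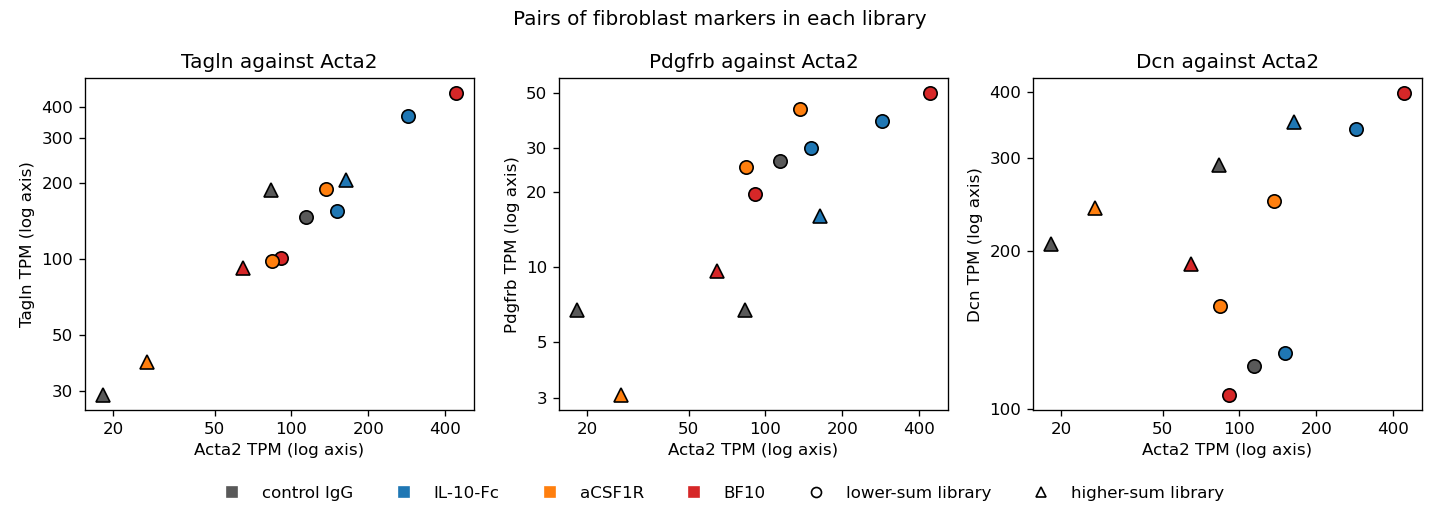
Tagln, Pdgfrb and Dcn against Acta2 in TPM (log axes) for the 12 libraries, coloured by treatment, with circles for lower-sum and triangles for higher-sum libraries. Tagln follows Acta2 in both sets, with ratios of 1.02 to 2.25, whereas for Dcn the triangles lie at ratios of 2.15 to 11.3 and the circles at 0.845 to 1.86.

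The library set was therefore compared directly, with the treatment groups held in the fit. Of the 10 markers, 4 were called lower in the higher-sum libraries, where 54% of tested genes were, and 1 was called higher, where 5.23% were. Pdgfra differed by -1.65 ± 0.23 (log2, SE; limma adjusted p 9.51e-05), Pdgfrb by -1.88 ± 0.32 (0.000292), Thy1 by -1.15 ± 0.27 (0.00301) and Acta2 by -1.36 ± 0.48 (0.024). Lum was higher by 0.91 ± 0.38 (SE), with a limma adjusted p of 0.0495. Tagln (-1.04) and Pdpn (-0.81) had negative differences, and Fap (0.45), Dcn (0.48) and Postn (0.43) had positive ones, none past the threshold. In their raw TPM the sets did not overlap for Pdgfra and Pdgfrb (both lower), beside 48.8% of tested genes, and for none in the higher direction, beside 6.23%. The median of all tested genes was -0.68, with 80.2% of them lower, so these values hold relative to a scale on which most genes were lower. The same totals defined the sets and divided the FPKM, so the p-values describe that split and test no condition of the study. Scaled by the median of ratios instead, Pdgfra and Pdgfrb kept their calls (-0.83 and -1.08), Acta2 (-0.49) and Thy1 (-0.27) lost theirs, Fap (1.22), Dcn (1.36) and Postn (1.31) were called higher, and Pdpn was at 0.030. The call of Acta2 was also lost without a filter on low genes, on FPKM (-0.92), and without BF10 replicate 6 (-1.27), aCSF1R replicate 8 (-1.16) or control replicate 5 (-1.30). The call of Lum was lost at a pseudocount of 0.1, without a filter on low genes, and in 9 of 12 fits with 1 library left out.

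The rule for choosing the markers did not use their base composition. On the TPM scale, composition split the markers by the sign of this difference but did not order them by its size. The longest coding transcripts of Fap, Lum, Dcn and Postn held 41.8%, 41.9%, 42.8% and 44.1% G and C, and these were the 4 markers with positive differences. Those of Pdgfra, Pdpn, Acta2, Tagln, Pdgfrb and Thy1 held 48.1%, 48.8%, 49.6%, 52.5%, 54.9% and 55.8%, and these were the 6 with negative differences. The median over the 12810 tested genes with a coding transcript in the annotation (82.6%) was 50.2%. Of such genes below 46% G and C, a boundary placed between the markers after their values were seen, 37.5% were higher in the higher-sum libraries, against 9.36% of those at or above it. With the median of ratios the shares were 76.8% and 35.7%. On that scale Pdpn (48.8%) was at 0.030, so the split of the markers by sign was not complete there. Among 18 other matrix genes and 10 other contractile genes the split was not complete. In the matrix list Ogn (36.3% G and C), Aspn (34.3%) and Mfap5 (46.4%) had positive differences. Lox (43.9%, -0.58) and Cthrc1 (46.1%, -0.37), both lower in G and C than Mfap5, had negative ones, as did the contractile gene Cald1 (45.0%, -1.62). The other matrix genes were negative, among them Bgn (52.5%, -2.80) and Fmod (53.7%, -1.74). The part of base composition in these differences was not tested.

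**Figure D4:**
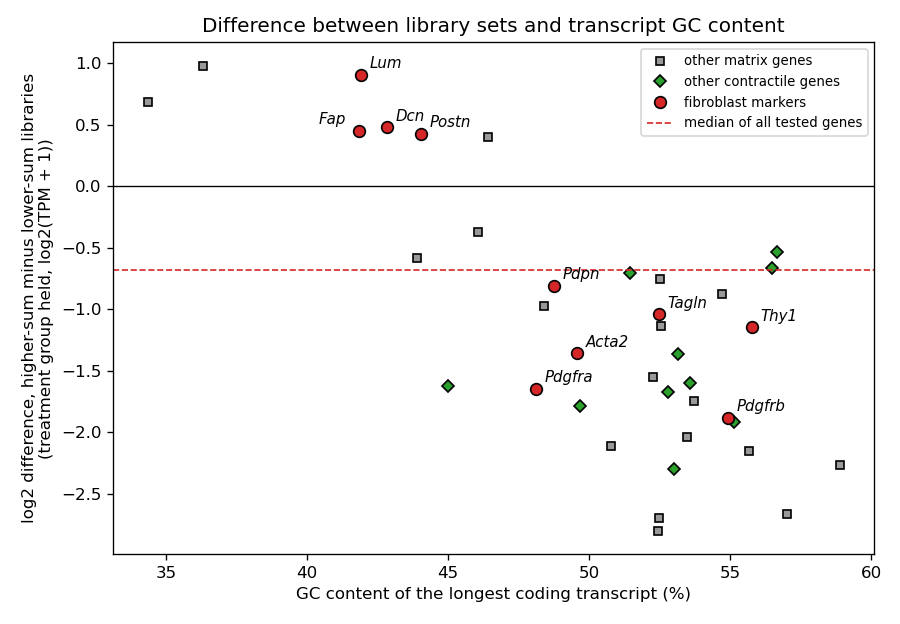
Log2 difference between higher-sum and lower-sum libraries on the log2(TPM + 1) scale, with treatment held in the fit. It is plotted against the G and C content of the longest coding transcript, for the 10 markers (red circles) and the other matrix and contractile genes. Lox (43.9%) and Cald1 (45.0%) lie below 0 at low G and C, while the 4 markers between 41.8% and 44.1% lie above 0 and the 6 between 48.1% and 55.8% lie below it, around the all-gene median of -0.68 (dashed line).

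To show this contrast in composition, the first 120 bases of the longest coding exon are given for the 2 markers lowest and for 2 of the markers highest in G and C, in the sense direction from 5′ to 3′ with G and C in capitals (GENCODE M21 annotation, GRCm38). The Fap stretch is in exon 20 of 26 (chr2:62517595-62517714, minus strand) and holds 48.3% G and C, above the 41.2% of its whole coding sequence. That of Lum is in exon 2 of 3 (chr10:97568245-97568364, plus strand) and holds 45.0%, against 44.5% in its whole coding sequence. That of Tagln is in exon 2 of 5 (chr9:45931642-45931761, minus strand) and holds 53.3%, and that of Thy1 in exon 3 of 4 (chr9:44046614-44046733, plus strand) and holds 55.8%.
Fap: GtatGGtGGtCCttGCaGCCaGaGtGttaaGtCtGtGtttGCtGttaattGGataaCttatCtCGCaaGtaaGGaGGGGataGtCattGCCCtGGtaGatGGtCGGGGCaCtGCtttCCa
Lum: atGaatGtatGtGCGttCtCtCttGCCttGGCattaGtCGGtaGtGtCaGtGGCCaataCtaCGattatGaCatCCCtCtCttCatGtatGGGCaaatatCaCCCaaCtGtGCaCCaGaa
Tagln: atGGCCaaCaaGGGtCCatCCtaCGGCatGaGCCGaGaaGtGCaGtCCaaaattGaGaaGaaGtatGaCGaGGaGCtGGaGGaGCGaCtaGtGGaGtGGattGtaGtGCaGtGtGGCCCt
Thy1: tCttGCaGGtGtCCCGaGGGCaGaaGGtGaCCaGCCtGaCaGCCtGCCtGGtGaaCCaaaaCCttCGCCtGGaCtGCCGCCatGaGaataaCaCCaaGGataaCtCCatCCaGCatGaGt
The whole coding sequences of Tagln and Thy1 held 52.9% and 55.6% G and C. The 120-base stretches differ less between these markers than the whole transcripts do. Their whole coding sequences, from 41.2% (Fap) to 55.6% (Thy1), differ about as much as their transcripts, from 41.8% to 55.8%.

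Other genes linked to fibroblast programs were counted over lists. Tumor cells and other host cells may also express them, and the cells behind these values were not told apart. Of the 4 PDGF ligand genes, 10 contractile genes, 18 matrix genes, 13 genes of inflammatory fibroblasts and 7 tested mesenchymal transcription factors, none passed the test in any of the 5 comparisons, in either direction. In IL-10-Fc against control all 10 contractile, all 18 matrix, all 13 inflammatory and all 7 transcription factor genes had positive log2 differences, with medians of 1.10, 1.13, 0.87 and 0.58, where 79.7% of all genes were positive. In BF10 against control the counts were 10 of 10, 15 of 18, 13 of 13 and 7 of 7, with medians of 0.83, 0.76, 0.56 and 0.47. Of all genes 77.5% were positive there. In aCSF1R against control the counts were 6 of 10, 13 of 18, 11 of 13 and 6 of 7, where 73.5% of all genes were positive. The lists were also counted between the library sets. Of all tested genes 80.2% were lower in the higher-sum libraries, 54% were called lower and 5.23% called higher. In the higher-sum libraries all 10 contractile genes were lower (7 called), 15 of 18 matrix genes (11 called), 10 of 13 inflammatory genes (5 called, with 1 called higher) and all 7 transcription factors (7 called). With the set as a term, the positive counts in IL-10-Fc against control were 10 of 10, 17 of 18, 13 of 13 and 7 of 7, with medians of 0.61, 0.72, 0.56 and 0.15, where 69.1% of all genes were positive. In BF10 against control they were 9 of 10, 15 of 18, 13 of 13 and 5 of 7, with medians of 0.39, 0.41, 0.30 and 0.12. In aCSF1R against control they were 2 of 10, 7 of 18, 6 of 13 and 5 of 7. Of all genes 62.4% were positive in BF10 and 51.2% in aCSF1R in this fit. The most abundant gene of each list by median was Pdgfa (89.8 TPM) among the ligands, Tpm1 (397 TPM) among the contractile genes, Fn1, encoding fibronectin (1314 TPM), in the matrix list, Ly6c1 (154 TPM) in the inflammatory list and Twist1 (39.1 TPM) among the transcription factors. Tcf21, a transcription factor of some fibroblast lineages, was listed at 0 in all 12 libraries. Pdgfb, a ligand of both receptors, ranged from 4.36 TPM in aCSF1R replicate 8 to 70.8 TPM in IL-10-Fc replicate 4 and had a log2 difference of 1.52 in IL-10-Fc against control (1.05 with the set term) that did not pass. Of the 4 ligand genes, 3 were higher in IL-10-Fc than in control (median 0.24), and 3 with the set term (0.29). The lowest was Pdgfc, at -0.23. In BF10 and in aCSF1R against control 2 of 4 were higher, with medians of 0.033 and 0.061. With the set term these counts were 3 and 1. In the higher-sum libraries 3 of 4 ligand genes were lower (1 called).

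Genes of other cell types, some of which share these markers, are given for comparison. Of all tested genes, 79.7% were higher in IL-10-Fc and 77.5% in BF10 than in control. With the set term these shares were 69.1% and 62.4%. The 8 pericyte genes summed to 39.4 to 98.3 TPM in control, 67.7 to 126 TPM in IL-10-Fc, 19.0 to 120 TPM in aCSF1R and 49.0 to 148 TPM in BF10, with 7 of 8 higher in IL-10-Fc and in BF10 than in control and none past the test. With the set term 6 of 8 were higher in IL-10-Fc and 4 of 8 in BF10. The lowest sum was in aCSF1R replicate 8, where Pdgfrb was also lowest, and the highest in BF10 replicate 3, where Pdgfrb was highest. The 5 endothelial genes summed to 38.5 to 87.3 TPM in control, 63.6 to 108 TPM in IL-10-Fc, 32.6 to 105 TPM in aCSF1R and 48.6 to 132 TPM in BF10, and were all 5 higher in IL-10-Fc, also with the set term (median 0.94 without it and 0.37 with it). The part of these cell types in the marker differences was not tested. The 6 T cell genes summed to 15.0 to 30.5 TPM in control, 20.9 to 39.3 TPM in IL-10-Fc, 9.23 to 31.3 TPM in aCSF1R and 13.6 to 44.0 TPM in BF10, below Thy1 in each of the 12 libraries, with Thy1 at 2.32 to 13.1 times their sum. In IL-10-Fc 5 of 6 were higher than in control and none passed. Cd8a, a coreceptor of cytotoxic T cells, had the largest difference of the 6, at 6.60 ± 2.18 TPM against 2.81 ± 0.28 TPM. It did not overlap between the groups, beside 6.53% of tested genes. Its log2 difference was 0.95, and 0.67 with the set term. Cd4 had the lowest of the 6, -0.012, and -0.39 with the set term. The part of T cells in the Thy1 difference was not tested. The lymphatic endothelial genes, expressed beside Pdpn in lymphatic vessels, were mostly low. Prox1 (0.031 to 0.985 TPM), Reln (0.016 to 3.33 TPM) and Flt4 (0.271 to 6.08 TPM) were each highest in BF10 replicate 3, where Pdpn was also highest. Lyve1 (0.684 to 10.1 TPM) was highest in IL-10-Fc replicate 4, and Ccl21a (0.063 to 190.1 TPM) in control replicate 7, where Pdpn was lowest. Their part in the Pdpn level was not tested. Skeletal muscle genes summed to at most 43.7 TPM, in IL-10-Fc replicate 7, and adipocyte genes ranged from 0.412 to 104 TPM, both extremes in aCSF1R. The epithelial genes, led by Krt18 at a median of 940 TPM, were present in all libraries, summing to 754 to 2540 TPM. All 6 were higher in IL-10-Fc than in control (median 0.54), and 5 of 6 with the set term (median 0.19).

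The genes whose library profile was nearest to the mean of the 10 centred marker profiles were Sulf1, Khdrbs3, Cnrip1, B3gnt9 and Csrp2. Their root mean square difference from it was 0.109, 0.131, 0.135, 0.152 and 0.156 on the log2 scale over 12 libraries, where the profile itself had an SD of 0.635. With profiles centred within each library set, Sulf1 (0.109) was again first, followed by Htr2a (0.123), Vgll3 (0.127), Cnrip1 (0.127) and Khdrbs3 (0.131). Of the markers themselves, Pdpn was nearest to the mean profile (0.239) and Lum farthest (0.840) over 12 libraries, and within sets Pdpn (0.175) was nearest and Acta2 (0.455) farthest. The mean profile was highest in BF10 replicate 3 (1.19) and lowest in control replicate 7 (-1.01).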

How the data were processed

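RNA of the 12 tumors, taken with TRIzol, went into stranded polyA libraries read on a NextSeq, and the authors aligned the reads to mm10 (GRCm38.101). The labels name STAR 2.7.5a, RSEM 1.3.3 and DESeq2 1.28.0. The authors deposited FPKM values for 55401 genes, and all 12 columns were matched to samples by name. Their 4 tables of DESeq2 results (fold changes, standard errors, p-values, mean normalized counts) were not used. FPKM were rescaled to TPM, and the 15504 genes with at least 1 TPM in at least 3 libraries were tested with limma 3.58.1 (R 4.3.3). The fit used log2(TPM + 1), which understates the change of low genes, with 1 mean per group, a trended prior and 8 residual degrees of freedom. The fit was checked on simulated data without library sets, which cannot show how well it finds changes in these libraries. Calls needed an adjusted p below 0.05 and a change of 1.5-fold, as in the study's methods. Nothing says how the tumors of a group were kept, so p-values measure the spread between these libraries. Markers and lists were chosen with earlier results of these data known. All 10 markers were named, and for each list its counts, up to 3 called genes and its most abundant gene, beside the 5 nearest profiles. Actg2, Acta1, Krt18, Prox1, Reln, Flt4, Lyve1, Ccl21a, Cd8a, Cd4, Tcf21, Pdgfb, Ogn, Aspn, Mfap5, Lox, Cthrc1, Cald1, Bgn and Fmod were added after their values were seen. Composition came from the longest coding GENCODE M21 transcript of each gene. Alternatives were the pseudocount (0.1), FPKM or median-of-ratios scaling, no filter or a stricter one (5 TPM), the library set as a term, lower-sum libraries only, the replicate number as a block, and each library left out.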

Additional observations from a re-analysis of the deposited data

How the results depend on the processing

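With 3 tumors per group no marker was called in any of the 5 comparisons under any alternative run. The median difference of the markers moved by less than the spread between replicates in each, a pooled SD of 0.947 (log2). This SD is larger than every median difference itself, so it cannot show that the medians were stable. Against control, the aCSF1R median was 0.20 and -0.12 with the set term, and that of BF10 was 0.71 and 0.25. The IL-10-Fc median was 0.93, and 0.50 with median-of-ratios scaling. Signs of single markers were not stable. Without rescaling FPKM, the differences against control were -0.060 (Dcn) in aCSF1R, -0.14 (Dcn) and -0.13 (Postn) in BF10, and -0.085 (Fap) and -0.010 (Postn) in IL-10-Fc. With median-of-ratios scaling they were -0.11 (Dcn) in aCSF1R, -0.33 (Dcn) and -0.31 (Postn) in BF10, -0.30 (Fap), -0.083 (Dcn) and -0.24 (Postn) in IL-10-Fc, 0.0063 (Pdgfra) for BF10 against IL-10-Fc, -0.012 (Lum) for BF10 against aCSF1R, and 0.030 (Pdpn) between the library sets. With the set as a term they were -0.12 (Pdgfrb) and -0.18 (Acta2) in aCSF1R, 0.0096 (Fap) in BF10 and 0.11 (Lum) in IL-10-Fc. In the lower-sum libraries alone, with 3 residual degrees of freedom, they were 0.46 (Fap) and -0.090 (Acta2) in aCSF1R, 0.15 (Fap) and 0.12 (Lum) in BF10, -0.16 (Pdgfra) and 0.18 (Lum) in IL-10-Fc, 0.44 (Pdgfra) and 0.089 (Pdpn) for BF10 against IL-10-Fc, and -0.073 (Pdgfrb), -0.31 (Fap) and 0.061 (Dcn) for BF10 against aCSF1R. There the control group had 1 library, which is assumed to vary like those of the other groups.

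Over the 12 fits with 1 library left out, BF10 against control ranged from -0.45 to 0.50 for Dcn, -0.42 to 0.29 for Fap, -0.86 to 0.22 for Lum, -0.24 to 0.50 for Postn and -0.031 to 1.29 for Tagln. IL-10-Fc against control ranged from -0.25 to 0.48 for Fap, -0.54 to 0.32 for Lum and -0.095 to 0.64 for Postn. The comparison of aCSF1R with control ranged from -0.51 to 0.92 for Acta2, -0.21 to 0.42 for Dcn, -0.19 to 1.52 for Pdgfrb, -0.56 to 0.18 for Postn, -0.87 to 0.55 for Tagln and -0.021 to 1.14 for Thy1. BF10 against IL-10-Fc ranged from -1.31 to 0.065 for Acta2, -0.81 to 0.14 for Dcn, -0.62 to 0.19 for Fap, -0.73 to 0.41 for Lum, -0.64 to 0.68 for Pdgfra, -0.90 to 0.23 for Pdgfrb, -0.90 to 0.12 for Pdpn, -0.41 to 0.25 for Postn and -0.76 to 0.079 for Thy1. BF10 against aCSF1R ranged from -0.57 to 0.37 for Dcn, -0.054 to 0.67 for Fap, -0.33 to 0.76 for Lum, -0.91 to 0.51 for Pdgfra, -0.61 to 1.11 for Pdgfrb, -0.21 to 0.85 for Pdpn and -0.25 to 0.91 for Thy1.

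Counts of all called genes relative to control were 88 in aCSF1R, 0 in BF10 and 1 in IL-10-Fc, with 0 between BF10 and IL-10-Fc and 114 between BF10 and aCSF1R. For IL-10-Fc against control the count was 0 at a pseudocount of 0.1, on FPKM and with the stricter filter, 2 without a filter, and 0 to 1 with a library left out. Median-of-ratios scaling gave 1 for BF10 against IL-10-Fc, where the count without a filter was also 1, and 135 for aCSF1R relative to control. A fit with the set term gave 312 for aCSF1R against control, 437 for BF10 against aCSF1R, 1 for BF10 against control and 4 for IL-10-Fc against control. In the lower-sum libraries they were 34 in aCSF1R, 1 in BF10 and 2 in IL-10-Fc, each compared with control, and 1 between BF10 and IL-10-Fc. With a library left out they were 55 to 91 for aCSF1R against control (55 without aCSF1R replicate 6, 58 without control replicate 4), 54 to 108 for BF10 against aCSF1R (54 without BF10 replicate 3, 61 without aCSF1R replicate 6, 72 without BF10 replicate 7) and 0 to 1 for BF10 against IL-10-Fc (1 without IL-10-Fc replicate 7). Between the library sets, 5 markers were called, 3 without a filter on low genes, and 3 to 6 with a library left out (3 without BF10 replicate 6 and without control replicate 5). Pdgfra and Pdgfrb were called lower in every one of these fits. The cause of these shifts was not tested.

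Correlations of the deviations of same-numbered libraries ran from -0.66 to 0.42 over 7 pairs, and were positive only where both libraries belonged to the same set. Because their sign followed the library set, they cannot show whether the replicate numbers of the labels pair the libraries. With the number as a replicate block, which leaves 2 residual degrees of freedom, the counts of called genes were 0 in aCSF1R, 1 in BF10 and 0 in IL-10-Fc relative to control, 1 between BF10 and IL-10-Fc and 1 between BF10 and aCSF1R. Under the replicate block the differences were -0.71 (Dcn) and -0.10 (Postn) in BF10 relative to control, 0.75 (Tagln) and -0.47 (Dcn) for aCSF1R against control, and -0.97 (Pdgfrb), -0.011 (Fap), -0.49 (Thy1) and -0.28 (Pdpn) for BF10 against aCSF1R.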
